A study of Canis lupus familiaris with 89 samples.

Results

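Complex adenomas and adenomas of the dog mammary gland were compared by RNA-seq. The detailed histology of the labels assigned 18 libraries to complex adenoma and 23 to adenoma, which together were the 41 benign libraries among the 89 of the series. An adenoma of this label is called a simple adenoma below, to set it apart from the complex type. All were mammary tissue of 16 dogs of several breeds, with no experimental treatment named in the labels, and polyadenylated RNA was sequenced. Each dog also gave tissue of other histology. The free-text pathology named a further lesion, such as lobular hyperplasia, epitheliosis or mastitis, in 5 of the simple adenomas and an intraductal papillary form in 3. Both types were present in 8 dogs, which gave 14 complex and 15 simple adenomas. A further 2 dogs gave only complex adenomas and 6 dogs only simple adenomas, so that the difference between types was taken within dogs.

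The gland is lined by an inner layer of luminal cells, which make milk, and an outer layer of myoepithelial cells, which contract under oxytocin and lay down basement membrane. A simple adenoma is described by pathologists as a benign growth of the epithelial layer, and a complex adenoma as a benign growth of luminal and myoepithelial cells together. In canine mammary tumors the myoepithelial part can sit in a loose matrix rich in proteoglycans, and tumors with cartilage or bone are classed as mixed. Aggrecan, link protein and the collagens of types II and XI are best known from cartilage, where aggrecan binds hyaluronan and holds water.

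Reads in genes, in units of 1e6, ranged from 9.05 to 61.7 per benign library. They averaged 32.6 ± 14.2 in complex adenomas (SD, n = 18) and 37.3 ± 13.0 in simple adenomas (SD, n = 23). Within the 8 dogs the difference was -2.5 (exact two-sided permutation of types within dogs, adjusted p = 0.819 over 4 measures). RNA integrity, scored by its RIN, averaged 9.17 ± 0.715 (SD, n = 17) and 9.26 ± 0.517 (SD, n = 23). Its exact permutation test gave an adjusted p of 0.819. Reads not in genes made up 53.2% ± 7.8 and 53.5% ± 5.78 of the total (exact permutation test, adjusted p = 0.901). Tumor diameter, whose unit the labels do not give, had a median of 0.7 in both types, and within dogs it was 0.933 larger in complex adenomas (exact permutation test, adjusted p = 0.741). Both types occurred in 7 sequencing runs. The types shared a run in 6 of the 8 dogs and no run in the other two, dogs 13 and 54. A model with run in place of dog was therefore fitted beside the main one. Apart from a run shared by dogs 13 and 54, each run held benign libraries of a single dog. The model with run thus also compared mostly within dogs and is not free of dog. In the shared run, complex adenomas of dog 13 stood beside a simple adenoma of dog 54. A pair of simple adenomas, of dogs 17 and 59, had over 10 times the median summed level of skeletal muscle genes.

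No gene passed an adjusted p of 0.05 in the main fit, the quasi-likelihood test of edgeR blocked by dog, with Benjamini-Hochberg adjustment (0 of 15842 genes tested, 0.0%, lowest adjusted p = 0.0602). At an unadjusted p under 0.05, 853 genes were higher (5.38%) and 780 lower (4.92%) in complex adenomas, 10.3% in all. The same data gave 60 called genes with limma voom and dog as a random effect (0.379%; 57 higher, 0.36%, and 3 lower, 0.0189%). DESeq2 with dog as a block called 258 of 15746 genes (1.64%; 183 higher, 1.16%, and 75 lower, 0.476%), and an edgeR fit of all 89 libraries called 10 of 20243 (0.0494%; 8 higher, 0.0395%, and 2 lower, 0.00988%). The number of calls thus depended on the test, and the leading genes are given with their levels before the adjusted p. Levels are in CPM, the reads of a gene scaled to the size of its library, and a log2 difference is that of complex over simple adenoma. Of these calls, 6 genes were called by limma voom, by DESeq2 and in the fit of 89 libraries. They were EHD3, ACAN, FMOD, SV2A and NPR2, all higher in complex adenomas, and SLC39A8, which was lower. These fits share libraries and do not support each other independently. The 12 genes of smallest p in each direction were admitted only with the fitted sign in 6 or more of the 8 dogs with both types. For them the counts of dogs given below are thus partly set by the choice.

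**Figure D1:**
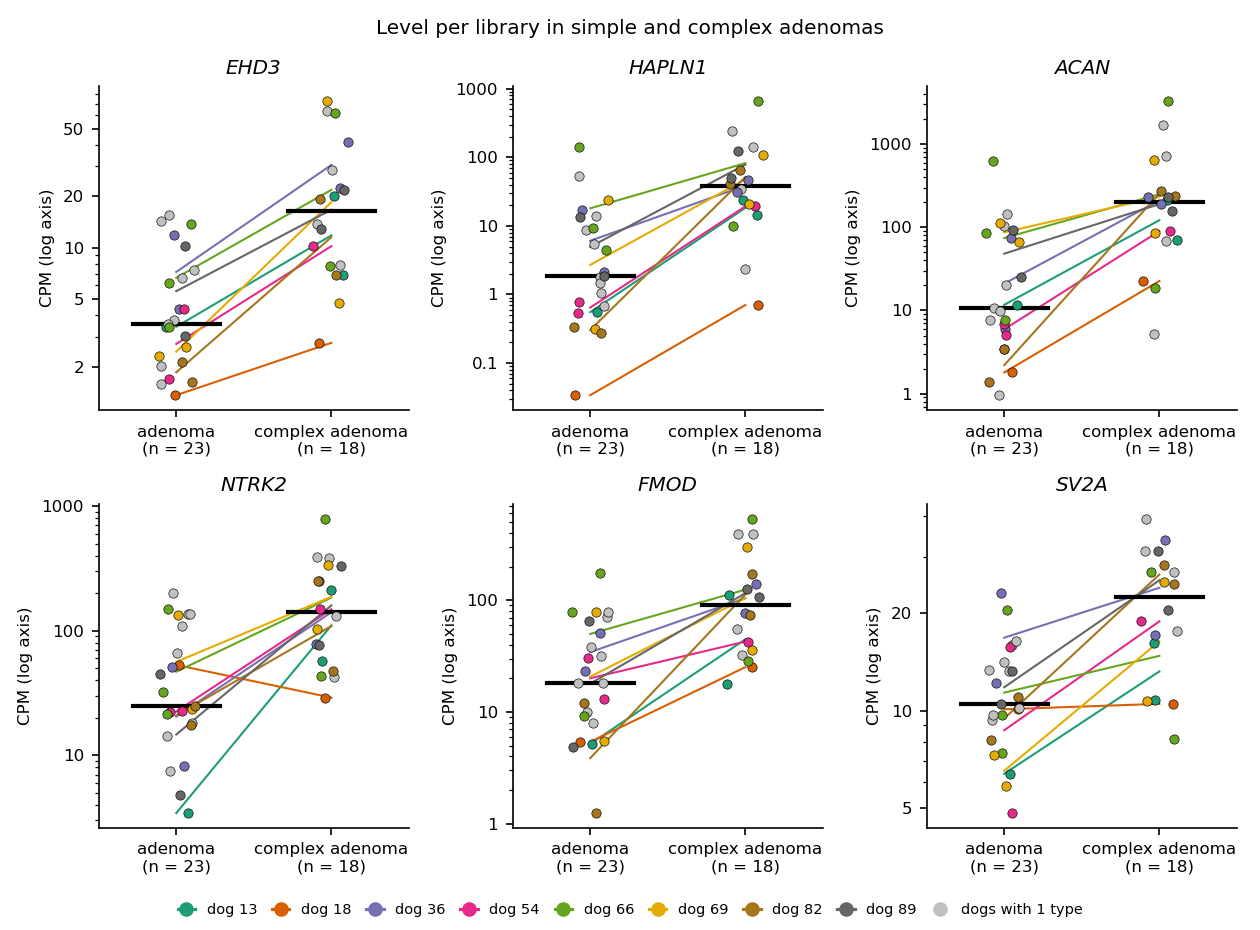
Level per library of 6 genes in simple adenomas (n = 23) and complex adenomas (n = 18), in CPM on a log axis. Black bars are group medians, colored points and lines are the 8 dogs with both types (lines join geometric means) and grey points the other dogs. In EHD3, 9 complex adenomas lie above the highest simple adenoma, while all 6 genes overlap between the groups.

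EHD3 (ENSCAFG00000005348), an ATPase that shapes tubules of the endocytic recycling compartment, had the smallest p. Its level in simple adenomas was 1.36 CPM at the lowest, 3.58 at the median and 15.5 at the highest. In complex adenomas it was 2.76, 16.5 and 72.9 CPM. The groups overlapped, but 9 of the 18 complex adenomas lay above every simple adenoma and no simple adenoma reached the median of the complex ones. The fitted log2 difference was 2.22 ± 0.39 (SE; edgeR adjusted p = 0.0602), with a higher mean in 8 of 8 dogs. Differences within dogs spread from 0.81 in dog 18 to 2.73 in dog 69. The estimate was 2.22 with run in place of dog (adjusted p = 0.231). Over 35 alternative fits the adjusted p ranged from 5.27e-06 to 0.404, and it passed 0.05 in 8 of them. The other EHD genes had log2 differences of -0.27 ± 0.2 for EHD1, 0.2 ± 0.29 for EHD2 and -0.07 ± 0.11 for EHD4 (SE).

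ACAN (ENSCAFG00000011534) encodes aggrecan, the large proteoglycan of cartilage. It ranged from 0.959 to 624.2 CPM in simple adenomas, with a median of 10.7, and from 5.24 to 3325 CPM in complex adenomas, with a median of 200.1. A single simple adenoma exceeded the complex median, and 17 of 18 complex adenomas exceeded the simple median. The log2 difference was 3.13 ± 0.66 (SE; edgeR adjusted p = 0.11), higher in 8 of 8 dogs, and 3.24 with run in place of dog. Complex adenomas of the same dog were not alike. Those of dog 66 had 3325 and 18.8 CPM, those of dog 29 had 69.3 and 5.24 CPM, and those of dog 69 had 84.8 and 639 CPM. The highest simple adenoma, at 624.2 CPM, also came from dog 66, whose other simple adenomas had 84.3 and 7.78 CPM. The log2 difference lay between 2.69 and 3.39 in the 35 alternative fits, of which 3 passed an adjusted p of 0.05.

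HAPLN1 (ENSCAFG00000029131) encodes the link protein that fastens aggrecan to hyaluronan. Its levels in simple adenomas were 0.0339, 1.84 and 139.9 CPM at the lowest, median and highest. In complex adenomas they were 0.701, 38 and 669.9 CPM. All but 1 complex adenoma lay above the simple median, and the ranges overlapped over most of their length. The log2 difference of 3.67 ± 0.73 (SE; edgeR adjusted p = 0.0927) was the widest among the 24 genes of smallest p. It was higher in 8 of 8 dogs and was 4.17 with run in place of dog. The highest libraries were largely those of ACAN, with 4 of the top 5 complex adenomas shared between both genes and 4 of the top 5 simple adenomas.

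FMOD (ENSCAFG00000009459) encodes fibromodulin, a small leucine-rich proteoglycan that binds collagen fibrils. Simple adenomas had 1.24, 18.2 and 175.5 CPM at the lowest, median and highest, and complex adenomas had 17.8, 91.8 and 539.7 CPM. A single simple adenoma exceeded the complex median. The log2 difference was 2.2 ± 0.55 (SE; edgeR adjusted p = 0.124), higher in 8 of 8 dogs, from 1.07 in dog 54 to 4.61 in dog 82, and 2.15 with run in place of dog. The top 5 complex adenomas of FMOD and ACAN were the same 5 libraries, and 3 of the top 5 simple adenomas were shared. Such sharing with ACAN was not confined to matrix genes. The talin gene TLN2 shared 5 of the top 5 complex adenomas with ACAN and 1 of the top 5 simple ones. EHD3 and NTRK2 shared 4 in each type, and SV2A shared 2 and 1.

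NTRK2 (ENSCAFG00000001380), the receptor TrkB for brain-derived neurotrophic factor, was the leading gene of the neural lists. Its levels were 3.43, 24.7 and 200.5 CPM in simple and 29.0, 140.3 and 793.3 CPM in complex adenomas. Every complex adenoma exceeded the simple median, and 8 exceeded the highest simple adenoma. The log2 difference was 2.52 ± 0.53 (SE; edgeR adjusted p = 0.11). It was higher in 7 of 8 dogs, and dog 18 went the other way with -0.86 within the dog. With run in place of dog it was 2.55. SV2A (ENSCAFG00000011588), a glycoprotein of synaptic vesicles, had a narrow range of 4.82, 10.5 and 23.2 CPM in simple and 8.15, 22.6 and 39.3 CPM in complex adenomas. Its log2 difference was 0.92 ± 0.23 (SE; edgeR adjusted p = 0.124), positive in 8 of 8 dogs but only 0.05 in dog 18, and 0.97 with run in place of dog.

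NPR2 (ENSCAFG00000002233) is the receptor of C-type natriuretic peptide, which makes cGMP and drives growth of cartilage. It had 17.3, 49.2 and 127.3 CPM in simple and 31.6, 91.6 and 226.8 CPM in complex adenomas, with a log2 difference of 0.89 ± 0.24 (SE; edgeR adjusted p = 0.151) and 1.03 with run in place of dog. Of the 10 genes of natriuretic peptide and cGMP signalling tested, NPR2 was the only member at an unadjusted p under 0.05.

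Further genes with small p were spread over several functions. TLN2, a talin that couples integrins to actin, had medians of 61.1 CPM in simple and 94.9 CPM in complex adenomas and a log2 difference of 1.01 ± 0.18 (SE; edgeR adjusted p = 0.0602), higher in 8 of 8 dogs. NAV3, a neuron navigator that binds microtubules, had medians of 19.6 and 50.4 CPM and a log2 difference of 1.24 ± 0.25. CPXM2, a secreted carboxypeptidase-like protein, had medians of 54.5 and 364.8 CPM and a log2 difference of 2.17 ± 0.48. TF, the iron carrier transferrin, had medians of 126.6 and 300.5 CPM and a log2 difference of 1.39 ± 0.31. These were followed by KAT2B, a histone acetyltransferase (1.02 ± 0.22), DOCK10, a guanine nucleotide exchange factor (1.02 ± 0.23), RASL12, a Ras-like GTPase (0.83 ± 0.18), and CLEC12A, an inhibitory receptor of myeloid cells (1.32 ± 0.29). Adjusted p over these genes lay between 0.0602 and 0.124 in edgeR, and none was called. Among the 12 genes of smallest p in this direction the sign held in all 8 dogs for EHD3, TLN2, HAPLN1, ACAN, CLEC12A, CPXM2 and TF.

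**Figure D2:**
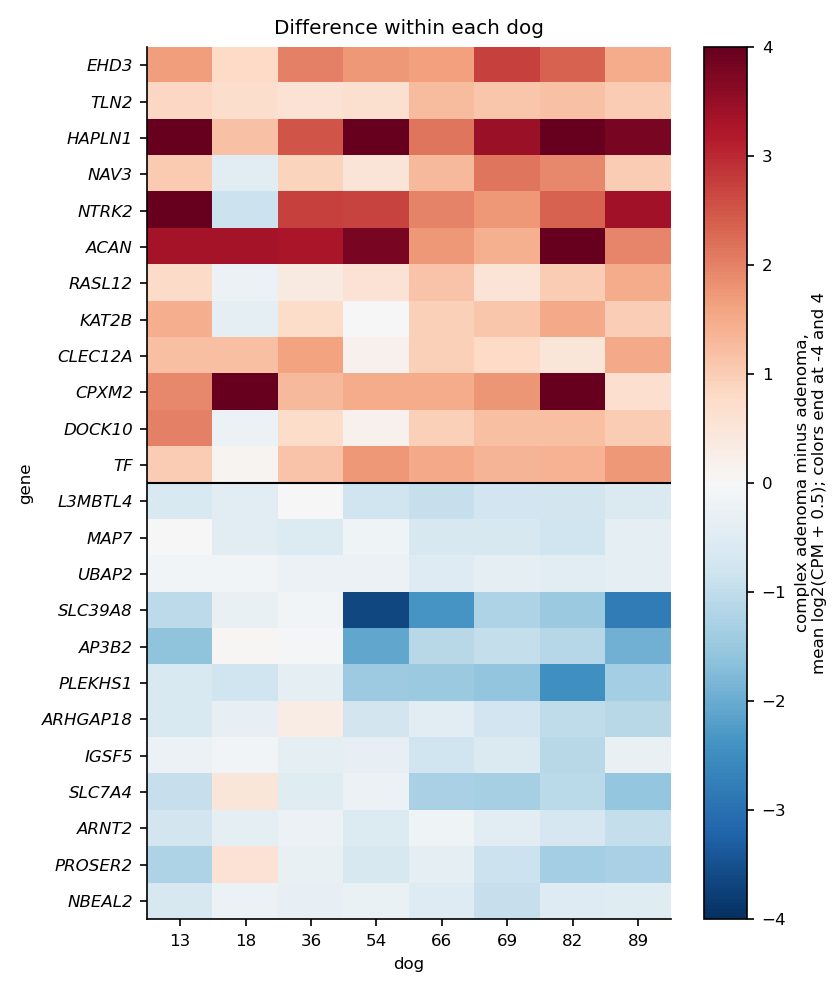
Difference between complex and simple adenomas within each of the 8 dogs with both types, as the mean of log2(CPM + 0.5) in complex minus simple adenomas, for the 12 genes of smallest p in each direction. Red is higher and blue lower in complex adenomas, and values beyond 4 have the end color. Dog 18, with 1 library of each type, has the opposite sign to the fit in 8 of the 24 genes, and no other dog in more than 2. Genes were chosen by p in these dogs and for the fitted sign in 6 or more of the 8, so the even signs partly follow from the choice.

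Among the 12 genes of smallest p with lower levels in complex adenomas, SLC39A8 (ENSCAFG00000010689), a membrane importer of zinc and manganese, had the widest difference. It had 16.4, 100.6 and 367.6 CPM at the lowest, median and highest in simple adenomas and 10.1, 33.5 and 255.7 CPM in complex adenomas. Of the 18 complex adenomas, 2 exceeded the simple median. The log2 difference was -1.82 ± 0.44 (SE; edgeR adjusted p = 0.124), lower in 8 of 8 dogs, from -0.1 in dog 36 to -3.63 in dog 54, and -1.73 with run in place of dog. PLEKHS1, a protein with a pleckstrin homology domain, differed by -1.55 ± 0.38, with medians of 58.6 CPM in simple and 29.8 CPM in complex adenomas. AP3B2, known as the neuronal form of an AP-3 adaptor subunit, differed by -1.22 ± 0.3, and SLC7A4, of the cationic amino acid transporter family, by -1.1 ± 0.29. Smaller differences were found for PROSER2 (-0.78 ± 0.2), L3MBTL4, a chromatin reader of the MBT family (-0.63 ± 0.13), and ARHGAP18, a GTPase-activating protein (-0.59 ± 0.15). They were also found for the junction protein IGSF5 (-0.55 ± 0.14), NBEAL2 of the BEACH family (-0.51 ± 0.14), the transcription factor ARNT2 (-0.5 ± 0.13), the microtubule-binding MAP7 (-0.49 ± 0.12) and UBAP2 (-0.33 ± 0.08). Their adjusted p lay between 0.11 and 0.151 in edgeR.

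**Figure D3:**
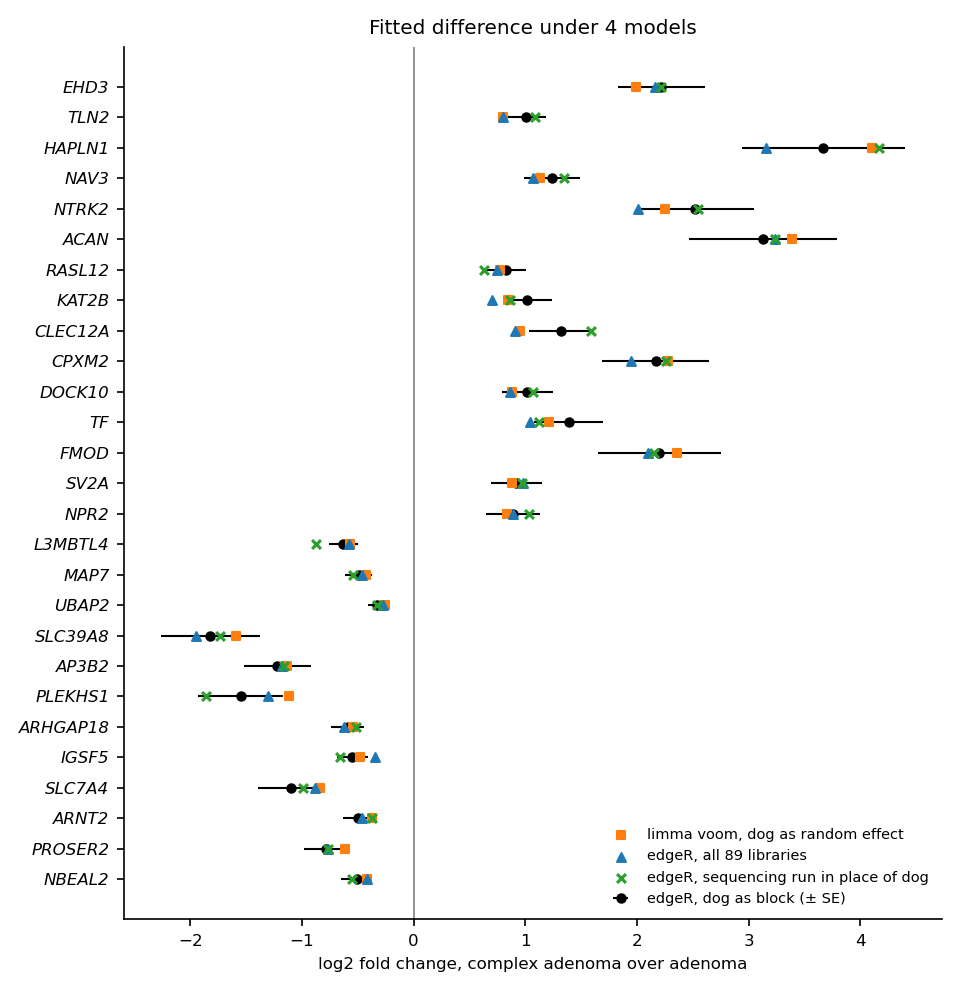
Fitted log2 fold change of complex over simple adenoma for the 12 genes of smallest p in each direction and for FMOD, SV2A and NPR2. Black points with bars are the main edgeR fit ± SE, and colored marks are limma voom, edgeR over all 89 libraries, and edgeR with sequencing run in place of dog. All marks of a gene lie on the same side of 0, with EHD3 between 1.99 and 2.22.

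Gene lists for cell types and pathways are described by counts at an unadjusted p under 0.05, for which the share over all genes was 5.38% higher and 4.92% lower, and by the median log2 difference, which was -0.03 over all genes. Over all genes 45.8% had a positive sign. No list was tested as a set.

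The labels name a myoepithelial component in complex adenomas only through the type, so its markers were read in both types. Contractile genes of myoepithelium were present in every library, with a summed level of 20 members between 3455.8 and 11624 CPM in simple and between 6203.5 and 24303.1 CPM in complex adenomas. Of the 20 members 17 had a positive sign, 2 were at an unadjusted p under 0.05 and higher, none was lower, and the median log2 difference was 0.16. MYLK, the kinase of myosin light chain, had medians of 860.8 CPM in simple and 1113.5 CPM in complex adenomas and a log2 difference of 0.42 ± 0.14 (SE; edgeR adjusted p = 0.272). MYH11, the myosin heavy chain of smooth muscle, had medians of 1043.7 and 1677 CPM and a difference of 0.55 ± 0.24 (SE; edgeR adjusted p = 0.426), positive in 8 of 8 dogs. SYNM, an intermediate filament protein, differed by 0.56 ± 0.27. ACTA2, smooth muscle actin, had 8.28, 282.3 and 864.2 CPM in simple and 12.4, 371.3 and 2509.8 CPM in complex adenomas. Its log2 difference of 0.14 ± 0.65 had no steady sign, with 4 of 8 dogs higher. CNN1, calponin, differed by 0.13 ± 0.44 and OXTR, the oxytocin receptor, by -0.12 ± 0.38, and the sign of both changed between fits, as did that of ACTA2. Vascular smooth muscle shares most of these genes, and the 6 mural cell genes tested had 0 members at an unadjusted p under 0.05 and a median of 0.17.

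Markers of basal epithelium had the opposite lean. In the basal epithelium list 19 of 24 members had a negative sign, 4 were lower and 2 higher at an unadjusted p under 0.05, and the median was -0.32. KRT5 had medians of 931.5 CPM in simple and 804.4 CPM in complex adenomas and a log2 difference of -0.5 ± 0.34. KRT14, its keratin partner, had 53.3, 1276.6 and 5477.5 CPM in simple and 336.0, 970.3 and 2543.2 CPM in complex adenomas, with a difference of -0.38 ± 0.43. TP63, the transcription factor of basal cells, differed by -0.27 ± 0.22, and the sign changed with run in place of dog (0.03). Adhesion genes were among those with lower values, with -0.63 ± 0.2 for PERP of desmosomes and -0.69 ± 0.25 for CDH3, P-cadherin. SNAI2, a transcription factor of mammary basal cells, differed by 0.72 ± 0.25, and SPARCL1, a matricellular protein, by 1.64 ± 0.46 (SE; edgeR adjusted p = 0.162). SPARCL1 was called in the fit of 89 libraries (adjusted p = 0.0414) and lay above the highest simple adenoma in 7 complex adenomas.

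Luminal genes leaned lower in complex adenomas. Of 27 members tested 22 had a negative sign, 8 were lower and 0 higher at an unadjusted p under 0.05, and the median was -0.22. MUC1, a mucin of the luminal surface, had 0.643, 8.98 and 95.9 CPM in simple and 0.0, 3.41 and 22.6 CPM in complex adenomas. Its log2 difference was -1.67 ± 0.65 (SE; edgeR adjusted p = 0.357), lower in 7 of 8 dogs, while dog 36 differed by 1.54. EPCAM, the epithelial adhesion molecule, had medians of 1340.4 and 833.8 CPM and differed by -0.44 ± 0.18. PROM1 differed by -0.85 ± 0.31, the epithelial transcription factor ELF3 by -0.81 ± 0.29 and the trafficking GTPase RAB25 by -0.55 ± 0.17. KRT18, a luminal keratin, differed by -0.45 ± 0.25 with medians of 679.4 and 495.7 CPM. Bulk libraries do not separate fewer cells of a type from less RNA per cell, which holds for every list here.

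Of the hormone receptors, 3 had positive values and ERBB2, a growth factor receptor read with them, lay near 0. ESR1, the estrogen receptor, had medians of 48.5 CPM in simple and 58.7 CPM in complex adenomas and differed by 0.78 ± 0.48. PGR, the progesterone receptor, differed by 0.44 ± 0.47 and PRLR, the prolactin receptor, by 0.79 ± 0.46. ERBB2 differed by -0.02 ± 0.13, with 4 of 8 dogs higher. None reached an unadjusted p of 0.05, the signs of ESR1, PGR and ERBB2 changed in some fits. Milk genes had a median of -0.34 over 10 members, with 2 lower at an unadjusted p under 0.05. These were BTN1A1, which coats milk fat globules (-1.25 ± 0.42; medians 50.7 and 22.3 CPM), and LTF, lactoferrin (-0.9 ± 0.4). All 27 proliferation genes tested had a negative sign with a median of -0.27, but 0 reached an unadjusted p of 0.05. With run in place of dog the list went the other way, with a positive sign in 20 members, a negative sign in 5 and a median of 0.13. MKI67, the marker of cycling cells, differed by -0.47 ± 0.45 with medians of 13.0 and 11.4 CPM, and by 0.26 with run in place of dog.

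**Figure D4:**
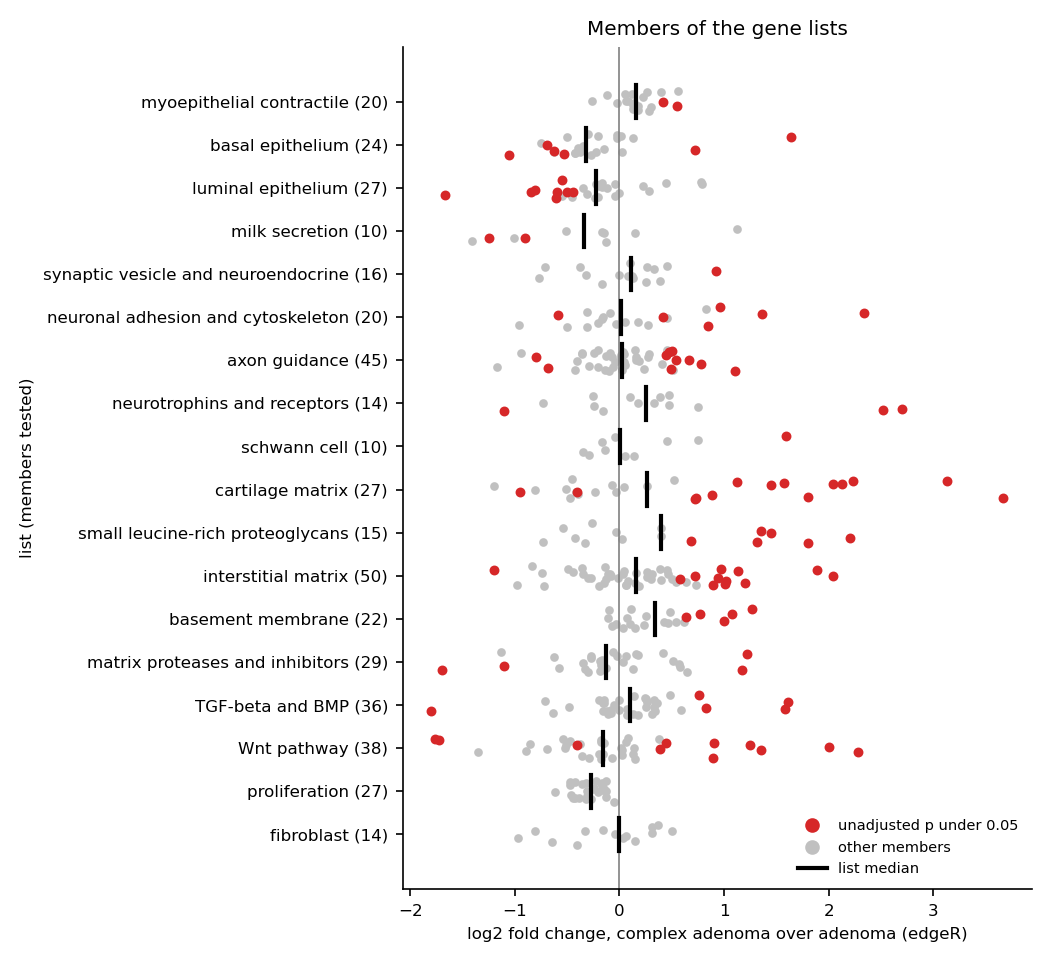
Log2 fold change of complex over simple adenoma in edgeR for the tested members of 18 gene lists. Each point is a gene, red where the unadjusted p is under 0.05, and black bars are list medians. Cartilage matrix and proteoglycan genes reach above 2, luminal genes lie mostly below 0, and the proliferation genes lie close together below 0, a direction that turned with run in place of dog (median 0.13).

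Cartilage matrix genes split widely. Of 27 members tested 15 had a positive and 12 a negative sign, and the median was 0.26. At an unadjusted p under 0.05, 12 were higher and 2 lower, and 4 were called by limma voom. The summed level ran from 491.6 to 1977.8 CPM in simple and from 646.0 to 7675.3 CPM in complex adenomas. Beside ACAN and HAPLN1, SCRG1, a small secreted protein of cartilage, had 0.485, 31.2 and 148.4 CPM in simple and 8.4, 144.6 and 384.7 CPM in complex adenomas. Its log2 difference was 2.04 ± 0.52 (SE; edgeR adjusted p = 0.128), and 9 complex adenomas lay above every simple one. COL11A2, a chain of collagen XI, differed by 2.13 ± 0.59, and COL11A1, another chain of it, by 1.12 ± 0.46. COL2A1, the main collagen of cartilage, had 2.5, 30.0 and 246.3 CPM in simple and 6.41, 93.6 and 1094.3 CPM in complex adenomas, with a difference of 1.57 ± 0.69 (SE; edgeR adjusted p = 0.431). Of the top 5 complex adenomas of COL2A1, 3 were shared with ACAN. The 2 members lower at an unadjusted p under 0.05 were SOX9 and COL9A2. SOX9, the transcription factor of cartilage and also of mammary epithelium, differed by -0.41 ± 0.17 (medians 127.9 and 100.2 CPM). COL9A2, a collagen IX chain, differed by -0.95 ± 0.33. COL9A2 was named after its value was seen. Of 11 bone genes 7 had a positive and 4 a negative sign, with a median of 0.21. At an unadjusted p under 0.05, 0 of them were higher and 1 lower.

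Small leucine-rich proteoglycans had a median of 0.4 over 15 members, with 6 higher and 0 lower at an unadjusted p under 0.05. Beside FMOD these included PRELP, which anchors collagen to basement membrane, with medians of 180.4 CPM in simple and 387.5 CPM in complex adenomas and a log2 difference of 1.31 ± 0.36 (SE; edgeR adjusted p = 0.161; higher in 8 of 8 dogs). CHAD, a collagen-binding protein of cartilage, differed by 1.45 ± 0.43 and ECM2 by 1.35 ± 0.44. Interstitial matrix genes had 11 higher and 1 lower of 50 members and a median of 0.15. EDIL3, a secreted integrin ligand, had medians of 26.9 and 64.5 CPM and differed by 2.04 ± 0.51 (SE; edgeR adjusted p = 0.124), with the opposite sign in dog 18 (-3.44). CTGF, a matricellular growth factor, had medians of 256.3 and 649.1 CPM and differed by 1.01 ± 0.26, higher in 8 of 8 dogs. SPON1 differed by 0.97 ± 0.29 and COL8A2, a short-chain collagen, by 0.89 ± 0.29.

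Basement membrane genes had a median of 0.34, with a positive sign in 18 of 22 members and 5 higher and 0 lower at an unadjusted p under 0.05. COL4A6 and COL4A5, chains of the collagen IV network of epithelial basement membranes, differed by 1.08 ± 0.29 and 0.64 ± 0.26. With run in place of dog COL4A6 was 0.61 and COL4A5 was 0.23. NID1, nidogen, differed by 1.0 ± 0.37 and NPNT, an integrin ligand, by 1.27 ± 0.5. NPNT ranged from -4.77 in dog 18 to 4.64 in dog 13. Matrix proteases and their inhibitors had a median of -0.13 and went both ways. ADAMTSL1 and ADAMTSL3, which lack a protease domain, differed by 1.22 ± 0.33 and 1.17 ± 0.36, and the collagenase MMP13 and stromelysin-3 (MMP11) by -1.7 ± 0.69 and -1.1 ± 0.45. MMP13 was lower in 8 of 8 dogs, while its medians were 6.28 CPM in simple and 7.05 CPM in complex adenomas. Those of MMP11 were 17.3 and 11.8 CPM, and its highest simple adenoma had 680.2 CPM.

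The 14 fibroblast markers had a median of 0 with 0 members at an unadjusted p under 0.05 in either direction. Their summed level lay between 794.4 and 30402.3 CPM in simple and between 1312.9 and 19865.8 CPM in complex adenomas, with medians of 3514.4 and 4714 CPM. Their part in the values of the matrix genes was not tested.

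In the neural lists a few members stood out among many without a difference. Synaptic vesicle and neuroendocrine genes had a median of 0.11, and SV2A was the only 1 of 16 at an unadjusted p under 0.05. Neuronal adhesion and cytoskeleton genes had 5 higher and 1 lower of 20 and a median of 0.01. CSPG5, a chondroitin sulfate proteoglycan of brain, had 3.11, 11.8 and 170.9 CPM in simple and 3.52, 68.8 and 598.9 CPM in complex adenomas. Its log2 difference was 2.34 ± 0.65 (SE; edgeR adjusted p = 0.162), higher in 8 of 8 dogs, and 4 of its top 5 complex adenomas were also those of ACAN. DESeq2 gave CSPG5 no adjusted p. NCAM1, a neural adhesion molecule, differed by 1.36 ± 0.5, MAP1B, a microtubule protein of axons, by 0.96 ± 0.31 and NLGN3, a neuroligin, by 0.85 ± 0.26.

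Among neurotrophic factors and receptors, PTN, the growth factor pleiotrophin, differed by 2.7 ± 0.71 (SE; edgeR adjusted p = 0.15), with medians of 2.36 and 13.2 CPM and higher values in 6 of 8 dogs. Its estimate depended on the fit, at 1.93 in limma voom, 1.38 with all 89 libraries and 0.64 without dog (PTN, edgeR adjusted p = 0.893 in the last). NGFR, the shared neurotrophin receptor and a marker of basal and Schwann cells, differed by -0.35 ± 0.34. Axon guidance genes had 8 higher and 2 lower of 45 with a median of 0.02. NRP1, a co-receptor of semaphorins and VEGF, had medians of 68.4 and 84.8 CPM and differed by 0.66 ± 0.16 (SE; edgeR adjusted p = 0.124), higher in 8 of 8 dogs. EPHB1 differed by 1.1 ± 0.35, SEMA5B by 0.78 ± 0.24 and the ephrin receptor EPHA4 by -0.68 ± 0.2.

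The Schwann cell markers had a median of 0.01 over 10 members. SOX10, which marks Schwann cells and also mammary basal cells, differed by 0.14 ± 0.2, with medians of 204.5 and 246.6 CPM. Only SCN7A, a sodium channel family member of glia, was at an unadjusted p under 0.05 (1.59 ± 0.44; medians 7.35 and 28.9 CPM).

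Signalling genes of the TGF-beta and BMP families had 4 higher and 1 lower of 36 members and a median of 0.1. By role, the ligand GDF5 differed by 1.58 ± 0.51 and the ligand BMP7 by -1.8 ± 0.69. The receptor BMPR1B, through which GDF5 signals, had 0.7, 5.2 and 18.1 CPM in simple and 1.59, 14.1 and 47.5 CPM in complex adenomas. Its log2 difference was 1.61 ± 0.38 (SE; edgeR adjusted p = 0.124), and 8 complex adenomas lay above every simple one. LTBP2, a latent TGF-beta binding protein of microfibrils, differed by 0.83 ± 0.25. Wnt pathway genes had 8 higher and 3 lower of 38, a negative sign in 21 and a median of -0.15. The 4 of smallest p were all higher. At low levels, the Wnt enhancer RSPO1 differed by 2.28 ± 0.69 (medians 0.609 CPM in simple and 3.56 CPM in complex adenomas). Its receptor LGR5 differed by 2.0 ± 0.65 (medians 2.06 and 7.0 CPM). The secreted inhibitor SFRP2 differed by 1.35 ± 0.43 and the nuclear effector LEF1 by 1.25 ± 0.44. None of these was called in the main fit, while BMPR1B was called by limma voom (adjusted p = 0.0221) and, with GDF5, BMP7, RSPO1, LGR5 and SFRP2, by DESeq2.

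Markers of other cells showed few differences. Of 11 endothelial genes only FLT1, a VEGF receptor, was at an unadjusted p under 0.05 (1.05 ± 0.25), and the list median was -0.06. Of 9 adipocyte genes PLIN4 and LPL were higher (1.27 ± 0.36 and 0.83 ± 0.4), with a list median of -0.23. Macrophage, mast cell and T and NK cell lists had 0 members at an unadjusted p under 0.05 in either direction. A negative sign was found in 9 of 10 T and NK cell genes, with a median of -0.28. B and plasma cell genes had a negative sign in all 9 members with a median of -0.27. Of these CD79A, of the B cell receptor, was the 1 member at an unadjusted p under 0.05 (-0.75 ± 0.35; medians 7.42 and 3.22 CPM). The summed level, read without regard to dog, had medians of 1929.2 CPM in simple and 817.8 CPM in complex adenomas. Its ranges overlapped, at 73.0 to 12363.2 CPM and 163.2 to 5088.0 CPM. The sum lay mostly in members that were not at that p. The skeletal muscle list reached 33358.3 CPM in a simple adenoma and 381 CPM at most in complex adenomas. Without the 2 simple adenomas of high muscle level, 2 genes were called by edgeR, EHD3 (adjusted p = 0.046) and TLN2 (adjusted p = 0.0355).

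The levels of the leading genes were then read in 3 other histology types, without a test. Normal gland, duct ectasia, atypia and in situ carcinoma were not read. The median of ACAN was 7.88 CPM in 14 lobular hyperplasias, 18.9 CPM in 15 carcinomas and 381.3 CPM in 4 mixed carcinomas, beside 10.7 CPM in simple and 200.1 CPM in complex adenomas. For FMOD and EHD3, too, the medians of complex adenoma and mixed carcinoma were above those of the other 3 types. FMOD had medians of 14.0 CPM in lobular hyperplasia, 29.8 CPM in carcinoma and 84.4 CPM in mixed carcinoma, and EHD3 had 4.41, 5.62 and 18.7 CPM. NTRK2 differed from these, with medians of 14.6, 42.1 and 14.2 CPM, so that mixed carcinomas lay below complex adenomas (140.3 CPM), although a carcinoma had the highest level of all types shown (1247.8 CPM). SLC39A8 had medians of 38.5 CPM in lobular hyperplasia, 48.1 CPM in carcinoma and 35.5 CPM in mixed carcinoma, so that the median of simple adenomas (100.6 CPM) was the highest and that of complex adenomas (33.5 CPM) the lowest of the 5 types. SV2A had 16.8, 16.0 and 20.3 CPM, and simple adenomas had the lowest median. Ranges overlapped between types for all 6 genes. The mixed carcinomas came from dogs 1, 17 and 18, of which only dog 18 also gave a complex adenoma. Their medians thus mostly stand for other dogs than those of complex adenomas. The free-text pathology of the mixed carcinoma of dog 17 named a focal carcinoma arising in a complex adenoma.

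**Figure D5:**
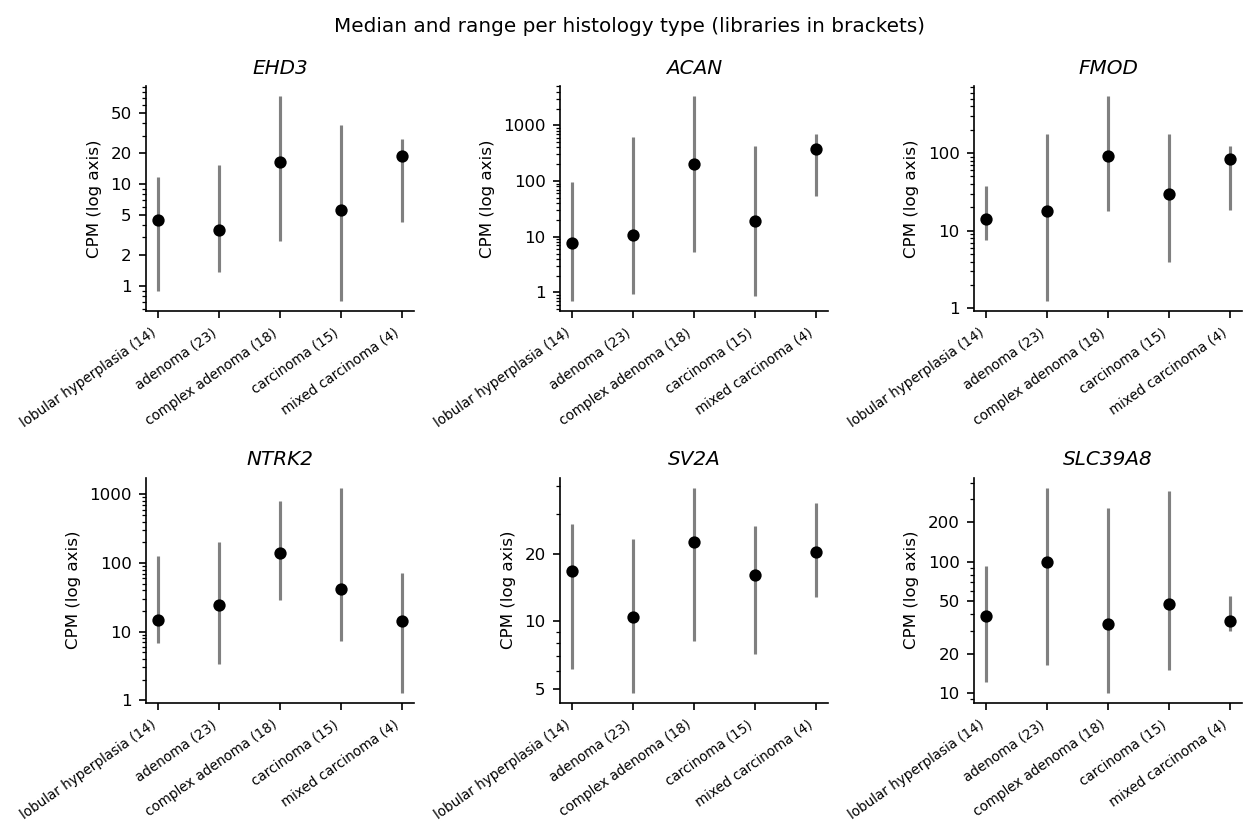
Median (point) and range (line) of 6 genes in CPM on a log axis in 5 histology types, with the number of libraries in brackets. The medians of ACAN, EHD3 and FMOD are high in complex adenoma and mixed carcinoma, and that of NTRK2 is highest in complex adenoma and lowest in mixed carcinoma.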

How the data were processed

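Polyadenylated RNA of dog mammary samples was sequenced (HiSeq2000, per the design text). The submitters' processing notes name HISAT2, FastQC and the build CanFam3.1, without versions. For the counting program, annotation release and strand setting the sources used here give nothing, so reads of a gene and of its antisense or overlapping partner may be mixed. The deposited files hold read counts per Ensembl gene. The authors also deposited a table of scores per gene symbol, whose construction is not stated and whose values were used only to name genes. A symbol was given to a gene row where its score profile within dogs matched that row (lowest r of a pair 0.99017, highest r with the next row 0.968). In this way 9142 of 11503 symbols were used, and 2361 columns were not used. KRT7, KRT8 and S100B have no value here for that reason.

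Reads outside genes entered neither library sizes nor tests (mean over libraries 37.4% not aligned, 16.0% in no gene, 0.078% ambiguous). The main test was edgeR 4.0.16 in R 4.3.3 with TMM, filterByExpr (minimum count 10, minimum total count 15), robust quasi-likelihood fits and dog as a fixed block over the 41 benign libraries (24 residual degrees of freedom), with Benjamini-Hochberg adjustment over all genes tested. The block is the patient number of the labels, which marks 1 animal, and the within-dog correlation in limma was 0.263. Standard errors are the size of the log2 fold change over the root of F. Levels are TMM-scaled CPM over all 89 libraries, and within-dog differences use log2(CPM + 0.5). Technical measures were compared by an exact permutation of types within dogs (up to 233280 relabellings). The fits were also run on counts simulated from the means and dispersions fitted by edgeR. Because those counts follow the model of edgeR, that run cannot show which number of calls is right for the real data.

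The genes, gene lists and comparison were chosen with earlier results of these data known, so they are described, not tested, as lists. Named genes are the 12 of smallest p in each direction that have a symbol, reach an average log2 CPM of 1 and keep their sign in 6 or more of 8 dogs (none passed the threshold), a fixed set of markers, and up to 4 members of each of 29 lists. Of 680 list genes, 530 were tested under a symbol. Alternatives were limma voom 3.58.1 with dog as a random effect, DESeq2 1.42.0, fits of all 89 libraries or only the 8 dogs with both types, no dog, RLE and upper-quartile factors, other filters, a test against a 1.5-fold change, RNA integrity, diameter or adipocyte covariates, run in place of dog, omission of groups of libraries, and omission of each dog. No sequences or positions are given, since no genome of this build was used here. A member of the neurotrophin list is not reported here.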

Additional observations from a re-analysis of the deposited data

Results flagged for a closer look

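Of 37 genes read in the 4 mixed carcinomas, 2 had a library far from the other 3, where chance flags about 1 in 20 groups. The highest mixed carcinoma had 488.6 CPM of NBEAL2 and the highest had 74.3 CPM of MUC1. Neither value enters the comparison of benign types.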

How the results depend on the processing

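The count of called genes, 0 in the main fit, was 0 with RLE or upper-quartile factors, with a minimum of 1 CPM, against a 1.5-fold change, with RNA integrity, diameter or adipocyte score as covariates, with run in place of dog and without papillary adenomas. It was 10 with all 89 libraries, 1 with only the 8 dogs with both types, 9 with no replicate block, 60 with dog as a random block in limma voom and 258 with DESeq2. It was 2 with no filter on low counts, 2 without libraries of high muscle level and 2 without adenomas with a further lesion. Leaving out each dog gave 0 to 9 calls, with 9 without dog 18, 2 without dog 17 and 1 without dog 66; 1109 to 2635 genes then had an unadjusted p under 0.05, against 347 in the test against a 1.5-fold change. The cause of these differences was not tested.

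Of 102 genes named, 92 kept their sign in all 35 alternatives. The log2 difference changed sign for TP63 (0.03), MKI67 (0.26) and NGFR (0.15) with run in place of dog, ACTA2 with RNA integrity (-0.11) and without papillary adenomas (-0.05), CNN1 with diameter (-0.05), OXTR with 89 libraries (0.09), no block (0.12) and limma voom (0.2), ESR1 with no block (-0.003), ERBB2 with 89 libraries (0.04) and in the libraries with a diameter (0.007), and MYH1 with no block (-4.78). The median of the milk list was -0.98 with run in place of dog and -1.44 with no block, and that of the skeletal muscle list -4.12 with no block. Over all 35 alternatives the log2 difference also moved by over 1.5 times for several genes. Among them were CLEC12A (lowest 0.63), PRLR (0.19), ECM2 (0.66), NPNT (0.6), LGR5 (1.19), RSPO1 (1.39 to 3.1), MMP13 (up to -0.79) and MMP11 (down to -1.89). Others were SEMA5B (lowest 0.27), SNAI2 (0.32), COL4A5 (0.23), COL4A6 (0.61), MAP1B (0.56) and SCN7A (1.01). Leaving out each dog gave -0.06 to 0.39 for ACTA2, -0.07 to 0.45 for CNN1, -0.03 to 0.68 for PGR, -0.32 to 0.14 for OXTR and -0.12 to 0.04 for ERBB2.

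The within-dog difference without each dog ranged from -0.756 to 0.569 percentage points for reads not in genes and from 0.295 to 1.17 for diameter (exact permutation p = 0.0329 without dog 89).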
